A study of Bos taurus with 20 samples.

Results

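The diet difference in the calving change was measured in liver of 10 multiparous Holstein-Friesian cows, each sampled after and before calving on an Affymetrix bovine gene array, with 1 array per sample. For each cow, the antepartum log2 signal of a gene was subtracted from its postpartum log2 signal. The resulting calving changes of 5 cows from the low-phosphorus diet (LP) were set against those of 5 cows from the adequate-phosphorus diet (AP). All 20 arrays and all 20011 genes with a symbol of their own on the array were tested, so no gene was left out of the test by its value. The genes named below were in part chosen by their p, as described with the processing. The LP cows had received a ration with 0.16% phosphorus in dry matter through the final 4 weeks of the dry period, with urea added to match the nitrogen content. The AP cows had received 0.35% phosphorus over the same weeks, supplied as mono-ammonium phosphate. Intake was restricted equally in both groups before calving, and from calving on both groups were fed 1 lactation ration with adequate phosphorus. Postpartum LP livers therefore came from cows that were no longer on the low-phosphorus ration. The labels used here give the times as postpartum and antepartum, with no day relative to calving. The LP cows are called A to E here, and the AP cows F to J.

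Around calving the liver of a dairy cow turns from supporting the pregnancy to supplying glucose and lipid for milk. Growth hormone rises in blood while its hepatic receptor, encoded by GHR, declines, and with it the output of insulin-like growth factor 1 (IGF1). Genes of glucose production and fatty acid oxidation and of the acute phase response are typically raised in the same days, and genes of fat synthesis lowered. Phosphorus enters this metabolism as phosphate in ATP, in phosphorylated sugars and in membrane lipids.

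No gene passed the test of the diet difference. In limma with Benjamini-Hochberg adjustment over all genes, 0 of 20011 genes had an adjusted p under 0.05 (0.0%), and the lowest adjusted p was 0.994. The unadjusted p was under 0.05 for 786 genes (3.93%), of which 428 (2.14%) had a higher and 358 (1.79%) a lower change in LP than in AP. The 5 LP cows and the 5 AP cows did not overlap for 130 genes (0.65%), with LP above AP for 66 of them (0.33%) and below for 64 (0.32%). The median standard error of a difference was 0.184 on the log2 scale, against a median absolute difference of 0.13. Without cow B, the unadjusted p was under 0.05 for 1280 genes, and still none passed. The differences given below for single genes are therefore values, with unadjusted p from the same limma test, and each has an adjusted p of at least 0.994.

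Cow C, in LP, had the highest postpartum signal of COL1A1, the main chain of fibrillar collagen, with 13.25 against 8.70 in the next LP cow. The counts for the diet difference and the calving change were also made without this cow. Its root mean square change over all genes was 0.644, and those of the other cows were 0.360, 0.330, 0.342 and 0.369 in LP and 0.368, 0.410, 0.342, 0.349 and 0.342 in AP. The mean of this measure was 0.0467 higher in LP than in AP (exact permutation test over all splits of the cows, two-sided, p = 0.746). Without cow C it was 0.0122 lower in LP (difference -0.0122, exact permutation p = 0.532). Without cow C, 0 genes passed as well, with a lowest adjusted limma p of 0.636. The unadjusted p was then under 0.05 for 887 genes (4.43%), and 260 did not overlap (1.3%), as fewer cows had to lie apart. By construction these 260 include all 130 genes that did not overlap with cow C, as a cow left out cannot add overlap. At least 2-fold differences numbered 85, with LP above AP in 66 and below in 19. For 61 of the 66, cow C had the highest change of all 10 cows, and without it the count was 42, with LP above in 14 and below in 28. Markers of hepatocytes averaged log2 signals of 11.67 (cow C) to 12.21 in postpartum LP livers and 12.09 to 12.13 in postpartum AP livers, so the defining markers of the labelled tissue were bright in all of them. In tissue samples of this kind, fewer cells of a type and less RNA per cell cannot be told apart.

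The genes that changed across calving over both diets, a comparison that gives each diet equal weight, numbered 381 at an adjusted p under 0.05 in limma (1.9%), with 190 higher (0.949%) and 191 lower (0.954%) postpartum. All 381 had the same sign of change in LP and in AP. Choosing genes by the mean of both changes favours this, so it is no separate result. In LP the change was the smaller in 292 of them (76.6%) and the larger in 89. The median absolute change was 0.46 in LP and 0.64 in AP on the log2 scale, and the LP change divided by the AP change had a median of 0.709. Among the 190 genes higher postpartum, the change was smaller in LP for 161, with a median ratio of 0.574. For the 191 genes lower postpartum it was smaller in LP for 131, with a median ratio of 0.852. Among the 381, 55 had an unadjusted p under 0.05 for the diet difference in limma, where 3.93% of all genes did. The change was smaller in LP for 54 of these 55. Such genes share the same cows and are not independent, and this count was not tested. Within a single diet, 2 genes passed in LP (0.00999%), APOA1 and LDHB, and 126 passed in AP (0.63%). That count is no test of the difference between the diets. The 381 became 128 to 178 without cow D, E, F, H, I or J and 668 without cow C, and the 126 became 18 to 21 without cow F, H, I or J and 429 without cow C.

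**Figure D1:**
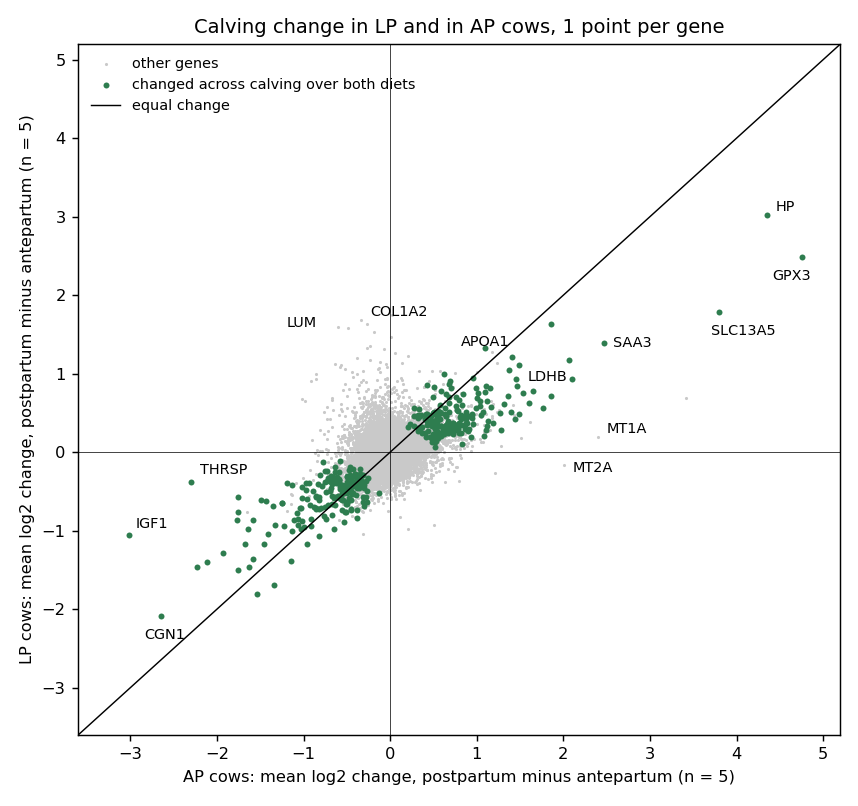
Mean log2 change across calving in LP cows (y axis) against AP cows (x axis), 1 point per gene, with the 381 genes that passed over both diets in green and the line of equal change in black. Most green points lie between the horizontal axis and the line, which is a smaller change in LP. COL1A2 and LUM, highest in cows C and B, lie apart above the line and left of the vertical axis.

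The smaller change in LP was not shared evenly by its cows. With each of the 381 genes signed by its mean change, the median change was 0.30, 0.26, 0.46, 0.53 and 0.71 for A to E in LP, and 0.65, 0.49, 0.66, 0.66 and 0.74 for F to J in AP. Cows A, B and C lay below all AP cows, and D and E lay within their range. Against the range of the 5 AP cows, the change was short of it in 192 genes for cow A, 212 for B and 150 for C, and in 74 for D and 43 for E. Without cow B, the share of calving genes with a smaller change in LP was 52.5% (212 of 404) and the median ratio 0.961, and without cow A they were 63.5% and 0.847. Leaving out cow C gave 74.3% (496 of the 668 genes, 3.34%, that then passed) and 0.758, and leaving out any other cow gave at least 76.3%. Cows A, B and C carry array numbers 1 to 4, 7 and 8 in the labels, and cows D and E 15, 16, 19 and 20, so that array number moves with this contrast within LP. AP cow F, with numbers 5 and 6, had a change of 0.65. With array number as a covariate, the smaller change was in LP for 74.7% of calving genes, with a median ratio of 0.746. That covariate has 1 slope for all cows, so it cannot separate array number from the split within LP.

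At each time the LP and AP livers lay a small amount apart over the 381 genes, which was not tested over cows. Signed in the direction of the calving change, the median of LP minus AP over the 381 genes was -0.11 postpartum and 0.08 antepartum. LP lay short of AP postpartum in 255 genes, and was already displaced in the postpartum direction antepartum in 269, with both in 170. Cow A stood highest antepartum, at 0.26 above the AP antepartum mean, and cow B lowest postpartum, at 0.30 above it, where AP cows lay between 0.59 and 0.71. Antepartum, cows B, D and E lay within the AP range of -0.07 to 0.10, and A and C above it. Postpartum, A (0.57), B and D (0.54) lay below the AP range, C (0.60) within it and E (0.72) above it.

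**Figure D2:**
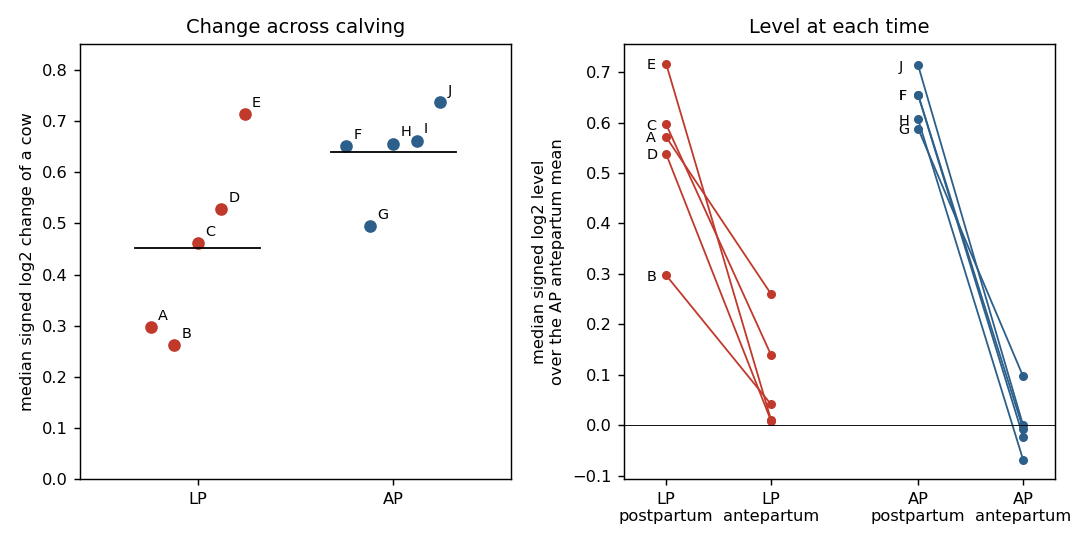
Left, the median log2 change of each cow over the 381 calving genes, each gene signed by its mean change, with bars at the diet means. Right, the median signed log2 level of each cow postpartum and antepartum relative to the AP antepartum mean, with lines joining the arrays of a cow. Cows A and B have the smallest changes, 0.30 and 0.26, cow A through a high antepartum and cow B through a low postpartum level.

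IGF1, the growth factor that liver releases under growth hormone, had the third-lowest unadjusted p of all genes and no overlap between the diets. Its change across calving was -0.54, 0.09, -0.30, -2.16 and -2.35 in LP cows A to E, against -2.78, -2.83, -2.78, -2.95 and -3.74 in AP cows F to J. Every AP cow thus had a steeper decline than every LP cow, and cow B had none. The LP minus AP difference was 1.97 (SE 0.43, unadjusted p = 0.000486 in limma), which is a 3.91-fold higher ratio of postpartum to antepartum signal in LP. Postpartum, IGF1 had log2 signals of 8.48, 10.27, 9.70, 8.06 and 7.75 in LP and 7.45, 7.49, 8.13, 7.62 and 6.99 in AP. Antepartum, its signals were 9.02, 10.18, 10.00, 10.22 and 10.10 in LP and 10.24, 10.31, 10.91, 10.57 and 10.73 in AP. LP cows were thus lower than every AP cow antepartum, and cows A, B and C were higher than every AP cow postpartum. Without cow C the difference was 1.78 (unadjusted p = 0.00115). The gene lies on chromosome 5 at 66532879 to 66604699 in the array annotation, and the genome build behind it is not given in the sources used.

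Partners of IGF1 had differences of the same kind. IGFALS, which encodes the subunit that holds IGF1 in its large complex in blood, changed by -0.04, -0.14, -1.45, -0.61 and -0.79 in LP against -1.17, -1.12, -1.32, -2.04 and -1.79 in AP. Only cow C lay among the AP cows. The difference was 0.88 (SE 0.27, unadjusted p = 0.00554) with cow C and 1.09 without it (unadjusted p = 0.000305). GHR had changes of -0.51, 0.07, -1.08, -0.74 and -0.97 in LP against -1.03, -1.01, -1.33, -1.26 and -1.61 in AP, a difference of 0.60 (unadjusted p = 0.0136). Cow C again was the LP cow within the AP range, and cow B the cow without a decline. IGFBP2, a binding protein that typically moves opposite to IGF1, had a mean change of 0.37 ± 0.67 in LP and 1.19 ± 0.49 in AP (SD, n = 5 each), with cow C at -0.80, and differed by -0.82 with that cow and by -0.53 without it. IGFBP1, a further binding protein, differed by -0.63 (SE 0.48) with cow C and by -0.29 without it, less than the spread between cows. IGF1, IGFALS and GHR fell across calving over both diets, with adjusted limma p of 0.000871, 0.00213 and 0.00112. Of the whole list of 29 growth hormone, IGF and insulin genes, 12 had a positive and 17 a negative LP minus AP difference, with a median of -0.03, so the list as a whole did not lie to 1 side. Over all genes, 50.2% were positive with cow C and 52.5% without it, and the median was 0.00.

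Lipid and citrate genes divided the LP cows in the same way. THRSP, a regulator of fatty acid synthesis responsive to thyroid hormone, changed by 0.42, 1.06, 0.91, -2.05 and -2.23 in LP, against -2.34, -3.17, -2.12, -1.93 and -1.94 in AP. Cows A, B and C lay above zero, where no AP cow lay, and D and E within the AP range. The difference was 1.92 (SE 0.60, unadjusted p = 0.00686) and 1.60 without cow C. SLC13A5, the sodium-coupled citrate transporter, changed by -0.04, 0.24, 1.00, 3.57 and 4.16 in LP, against 3.80, 3.65, 3.91, 3.73 and 3.92 in AP. The spread of these changes was wide in LP, with an SD of 1.95, and narrow in AP, with an SD of 0.11. Its difference was -2.01 (SE 0.68, unadjusted p = 0.0112). Postpartum signals of SLC13A5 were 8.53, 6.55, 8.02, 10.35 and 9.61 in LP and 10.21, 8.98, 9.71, 10.26 and 10.81 in AP. GPAM, which catalyses the first step of glycerolipid synthesis, changed by -0.38 ± 0.44 in LP and -0.76 ± 0.18 in AP. Of 27 genes of fatty acid and triglyceride synthesis, 19 had a positive difference, with a median of 0.27 and of 0.20 without cow C. At an unadjusted p under 0.05, 1 of them had a positive and 2 a negative difference, where over all genes 2.14% and 1.79% did.

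**Figure D3:**
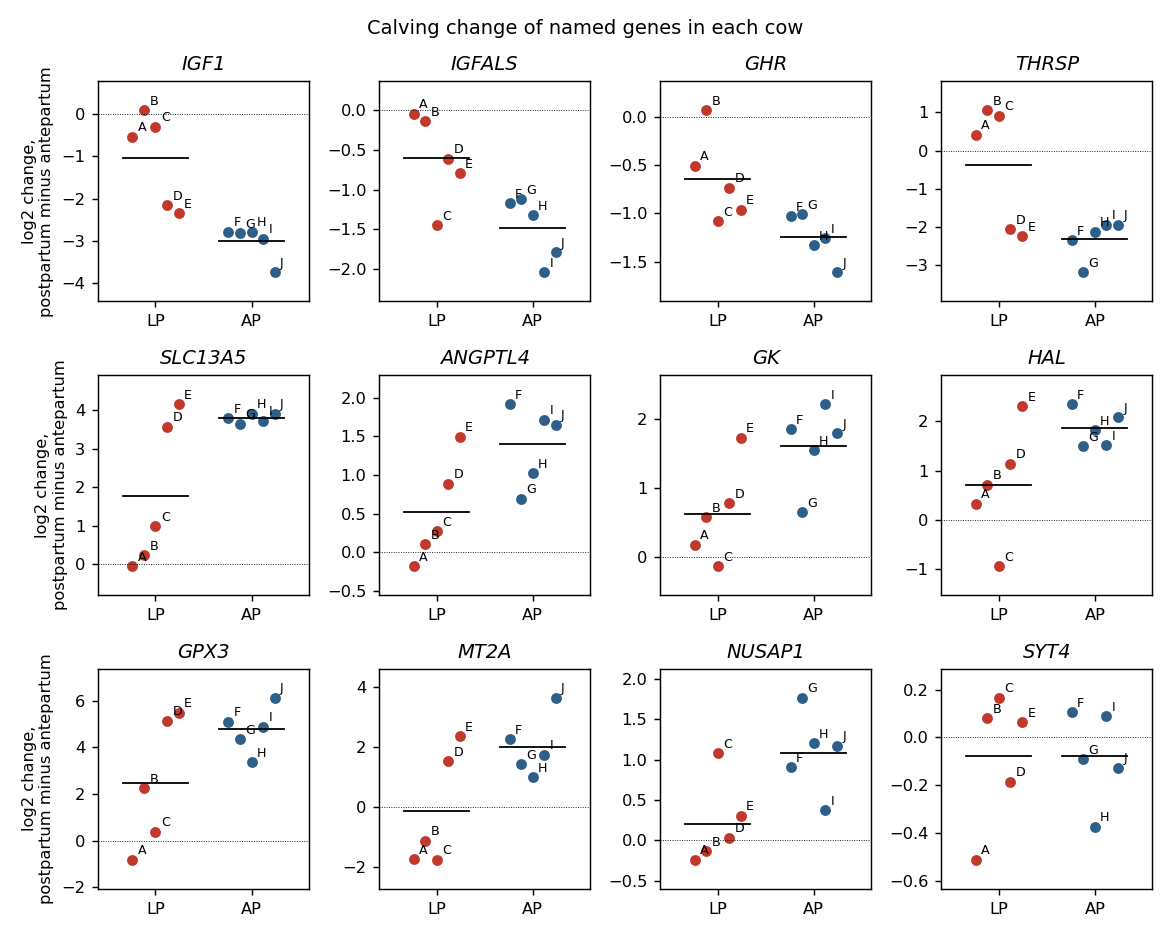
Log2 change across calving of each cow for 12 named genes, LP cows left and AP cows right, with bars at the diet means and cows marked by letter. For IGF1, THRSP, SLC13A5 and MT2A, cows D and E lie near or among the AP cows and A, B and C apart, while SYT4 shows the same mean change of -0.08 in both diets.

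Named genes of glucose production, fatty acid oxidation and nitrogen disposal had smaller changes in LP than in AP. GK, glycerol kinase, which brings glycerol from mobilised fat into gluconeogenesis, changed by 0.18, 0.58, -0.13, 0.78 and 1.73 in LP against 1.84, 0.65, 1.55, 2.21 and 1.79 in AP. Cows A, B and C lay below all AP cows. The difference was -0.98 (SE 0.34, unadjusted p = 0.0122). PC, pyruvate carboxylase, which feeds pyruvate carbon into glucose synthesis, changed by 0.14, 0.43, -0.46, 1.48 and 2.29 in LP against 1.78, 1.23, 1.66, 1.60 and 2.00 in AP. Its difference was -0.88 (unadjusted p = 0.0505), and -0.57 without cow C. PPARGC1A, a coactivator of gluconeogenic genes, differed by -0.55 (unadjusted p = 0.0175). The list of 26 gluconeogenesis genes had 21 negative differences and a median of -0.18, but 13 negative ones and a median of 0.00 without cow C. GYS2, the liver glycogen synthase, differed by -0.47 (unadjusted p = 0.0588).

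ANGPTL4, a lipase inhibitor and target of the fatty acid receptor PPARA, changed by -0.17, 0.11, 0.28, 0.89 and 1.49 in LP against 1.92, 0.70, 1.02, 1.71 and 1.65 in AP, a difference of -0.88 (unadjusted p = 0.0147). Its changes too were below every AP cow in A, B and C. CPT1B, a carnitine palmitoyltransferase, differed by -0.59 with cow C (unadjusted p = 0.0746) and -0.37 without it, and CREB3L3, a liver transcription factor of fasting metabolism, by -0.72 (unadjusted p = 0.0181). MGLL, which releases glycerol from monoglycerides, changed by 0.20 ± 0.46 in LP and 0.94 ± 0.24 in AP, with 1 of 5 LP cows at or above the lowest AP cow, and differed by -0.74 (unadjusted p = 0.00397). G0S2, an inhibitor of adipose triglyceride lipase, differed by -0.94 (unadjusted p = 0.0418), and APOA4, an apolipoprotein among the genes with the largest rises over both diets, by -1.16 (unadjusted p = 0.0449) and by -0.76 without cow C. Of the 43 genes of fatty acid oxidation and PPARA targets, 36 had a negative difference, with a median of -0.19, and 26 without cow C, with a median of -0.06. HAL, which degrades histidine, changed by 0.33, 0.71, -0.93, 1.14 and 2.31 in LP against 2.35, 1.503, 1.82, 1.52 and 2.09 in AP, a difference of -1.15 (unadjusted p = 0.0225), and of -0.73 without cow C. ARG1, the arginase of the urea cycle, differed by -0.86 with cow C and -0.50 without it (unadjusted p of 0.0255 and 0.0346). In the 37 genes of the urea cycle and amino acid breakdown, 33 differences were negative with cow C and 18 without it. Cow C had a median change of -0.95 over these genes, where the other cows lay between -0.11 and 0.16, and its hepatocyte markers a median change of -0.55.

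Acute phase and stress genes followed. GPX3, the plasma glutathione peroxidase which rose over both diets (adjusted p = 0.00429 in limma), changed by -0.82, 2.25, 0.38, 5.14 and 5.48 in LP against 5.09, 4.35, 3.36, 4.89 and 6.12 in AP. Cows A, B and C lay below all AP cows and D and E within their range. The difference was -2.27 (SE 1.04, unadjusted p = 0.0468), and -1.75 without cow C (unadjusted p = 0.109). MT2A, a metal-binding metallothionein, changed by -1.74, -1.13, -1.77, 1.51 and 2.35 in LP against 2.25, 1.42, 0.99, 1.73 and 3.64 in AP, and MT1A by -2.04, -1.05, -1.54, 2.46 and 3.16 against 2.79, 2.03, 1.05, 2.07 and 4.04. For both, the signal was lower postpartum in cows A, B and C and higher in all other cows. MT2A differed by -2.16 (unadjusted p = 0.0145) and MT1A by -2.20 (unadjusted p = 0.0337). Metallothionein genes are near-identical copies, so their probe sets may share signal.

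Haptoglobin, HP, a haemoglobin-binding acute phase protein, changed by 0.97, 3.07, 2.27, 4.73 and 4.07 in LP against 3.11, 6.41, 5.87, 2.82 and 3.56 in AP. HP rose over both diets (adjusted p = 0.000871 in limma), and the difference between them, -1.33 (SE 0.78), was within the spread between cows. SAA3, an acute phase serum amyloid, differed by -1.08 (SE 0.53), and SAA4, the constitutive form, by -1.16 (unadjusted p = 0.0184), with cows A, B and C at -1.21, -0.24 and -1.88 and all others above zero. Of 32 positive acute phase genes, 28 had a negative difference, with a median of -0.25. Without cow C it was 25, with a median of -0.12. At an unadjusted p under 0.05 there were 5 with cow C and 3 without it, all negative, where the share of negative calls over all genes was 1.79% with cow C. Complement and coagulation genes were negative in 37 of 38 with cow C and in 19 of 38 without it.

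Among genes whose LP and AP cows did not overlap, 20 were named by rank of p, and IGF1 had the largest difference of them. XDH, the oxidase that ends purine breakdown in uric acid, changed by -0.20, 0.07, -0.55, 0.19 and 0.07 in LP against 0.62, 0.70, 0.88, 0.22 and 0.52 in AP. The closest cows were D in LP and I in AP, and the difference was -0.67 (SE 0.18, unadjusted p = 0.00207). SLC2A4, the insulin-responsive glucose transporter of muscle and fat, changed by 0.23, -0.08, 0.13, 0.02 and 0.16 in LP against -0.37, -0.22, -0.66, -0.61 and -0.56 in AP. Its difference was 0.58 (SE 0.14, unadjusted p = 0.00108), at mean log2 signals of 5.51 ± 0.20 in LP and 5.18 ± 0.16 in AP postpartum, below the median signal of the arrays. SELP, P-selectin, an adhesion molecule of platelets and endothelium, changed by -0.33, -0.54, -0.46, -0.41 and -0.35 in LP against -0.79, -0.96, -2.07, -1.12 and -0.72 in AP. Here the 5 LP cows lay close together, and B was the nearest of them to AP. SELP, IGF1 and PARN, a ribonuclease that shortens poly(A) tails, were the 3 genes without overlap among the 381 that changed over both diets. All 3 changed less in LP. Over all genes, 130 of 20011 (0.65%) had no overlap, so the count of 3 is no result about the calving genes.

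The other named genes without overlap had differences between 0.41 and 0.95 in size. With LP above AP these were MAMDC2 (0.95), a matrix-associated protein, and ACKR1 (0.75), a chemokine-binding receptor of venules and red cells. Next came TLR5 (0.64), the flagellin receptor, KCNK3 (0.56), a potassium channel, STAMBPL1 (0.52), a deubiquitinase, CCR8 (0.49), a chemokine receptor, and KIAA0182 (0.42). The MAMDC2 and ACKR1 changes were highest in cow C, at 1.33 and 1.12, and the differences without it were 0.74 and 0.56. With LP below AP stood DNA2 (-0.76), a helicase and nuclease of DNA replication, CYCS (-0.63), cytochrome c of the respiratory chain, and WDR35 (-0.55), a protein of cilium transport. CABLES1 (-0.50), a cyclin-dependent kinase adaptor, CNOT7 (-0.49), a deadenylase, PARN (-0.45), ERICH1 (-0.44), PIM3 (-0.42), a kinase, and ELMOD3 (-0.41) completed them. CABLES1 and ERICH1 had every LP cow below zero and every AP cow above it, some of them barely. AP cow H stood at 0.0011 for CABLES1 and 0.036 for ERICH1, and LP cow B at -0.024 for ERICH1. Several of these genes were dim, against array medians of 5.97 to 6.14. TLR5, STAMBPL1, CCR8, DNA2 and ERICH1 had log2 signals below 5.97 in every sample. ACKR1 and MAMDC2 did so except in cow C postpartum (5.98 and 6.27). KCNK3 did so except in cows B and C postpartum (6.02 and 6.31). CNOT7, PARN, PIM3 and ELMOD3 lay above 6.14 in every sample. KIAA0182, CYCS, WDR35 and CABLES1 ranged from below 5.97 to above 6.14. From the marker lists, EMCN (0.76), a sialomucin of endothelium, and KRT19 (0.74), a keratin of bile ducts, had no overlap either. Cow C held the highest change of both, and without it they differed by 0.35 and 0.44. Of 12 endothelial markers, 7 had a positive difference with cow C and 4 without it, with medians of 0.03 and -0.07. Of 11 bile duct markers, 7 were positive with cow C and 9 without it, with medians of 0.19 and 0.20. ELMOD3 changed by -0.31 ± 0.09 in LP and by 0.11 ± 0.13 in AP (SD, n = 5 each).

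**Figure D4:**
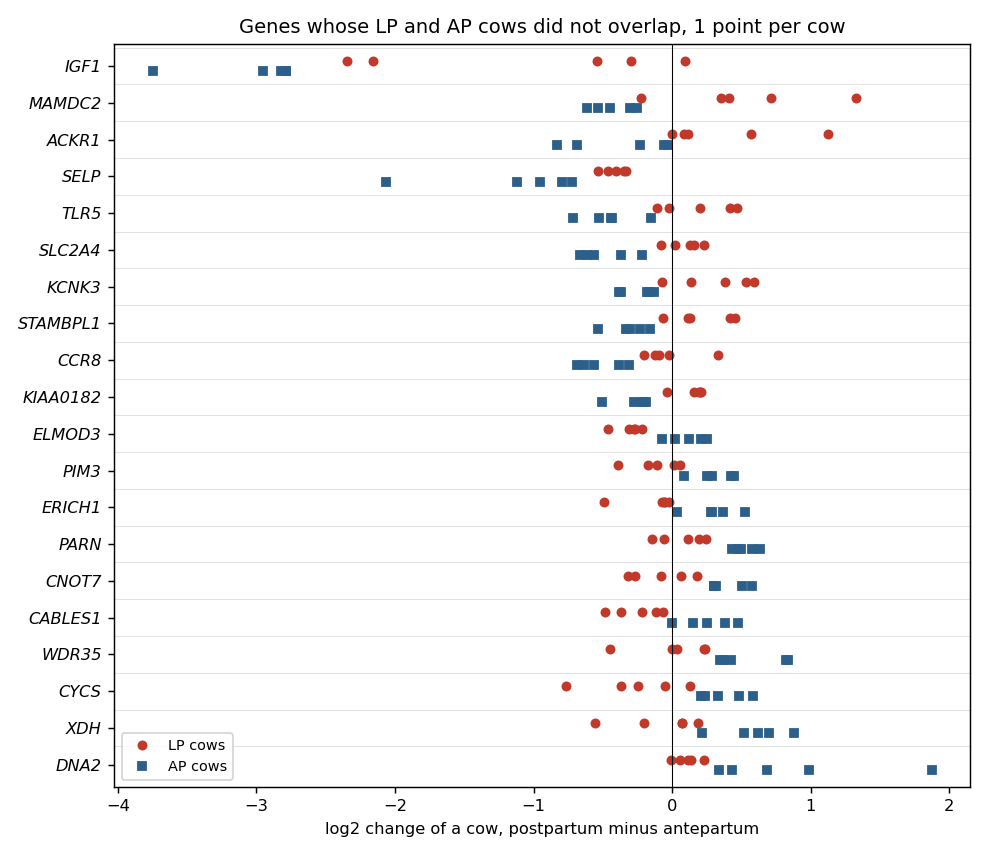
Log2 change across calving in each LP cow (red circles) and AP cow (blue squares) for the 20 genes named by rank of p among those whose diets did not overlap, ordered by the LP minus AP difference. IGF1 has the widest gap in means, 1.97, and most others have changes within 1 log2 unit of zero in every cow.

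Genes that handle phosphate were positive about as often as negative with cow C and more often positive without it. Of 29 phosphate and pyrophosphate genes, 15 had a positive and 14 a negative difference, with a median of 0.04, and 21 and 8 without cow C, with a median of 0.11. At an unadjusted p under 0.05 there was 1 with cow C and 3 without it, all positive, where 2.14% of all genes were positive calls with cow C and 4.43% were calls in either direction without it. The 1 was SLC17A2, of the sodium-phosphate transporter family, at 0.34, 0.11, -0.54, 0.12 and -0.01 in LP against -0.31, -0.29, -0.41, -0.29 and -0.91 in AP. Cow C was the LP cow within the AP range. The difference was 0.45 (unadjusted p = 0.032), and 0.58 without cow C (unadjusted p = 0.00333). ENPP3, an ectoenzyme that splits nucleotide phosphate bonds, differed by 0.42 (unadjusted p = 0.0636). Of 29 genes of inositol phosphates and SPX proteins, 12 were positive with cow C and 17 without it, with medians of -0.03 and 0.01, and ISYNA1, which makes inositol phosphate from glucose phosphate, differed by 0.39 (unadjusted p = 0.0219). Adenine nucleotide genes were positive in 11 of 25 with and without cow C, with medians of -0.11 and -0.05. XDH and CYCS are described above, and PNP, a purine phosphorylase, differed by -0.40 (unadjusted p = 0.0439). Vitamin D and calcium genes were positive in 15 of 25 with cow C and 17 without it, with medians of 0.03 and 0.08, and TRPV6, a calcium channel, differed by 0.42 (unadjusted p = 0.0237).

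Sterol genes leaned to a positive difference with and without cow C. Most metabolic lists had a negative median with cow C, but several of these had a positive one without it. Of 24 genes of cholesterol synthesis and uptake, 19 had a positive difference, with a median of 0.13, and 22 without cow C, with a median of 0.38. The median change of the list was 0.91, 0.62, -0.67, 0.12 and -0.41 in LP cows A to E, against 0.14, -0.37, 0.26, 0.08 and 0.04 in AP cows F to J. Cows A and B lay above every AP cow, C and E below, and D among them. The member with the lowest p went against it: STARD4, a cholesterol carrier protein, changed by -0.19, 0.40, -0.46, 0.25 and 0.27 in LP against 0.78, 0.22, 0.79, 0.97 and 0.96 in AP, a difference of -0.69 (unadjusted p = 0.00411). ABCG8, which exports sterol into bile, differed by 0.72 (unadjusted p = 0.0117), with a decline in all 10 cows. CYP26A1, which breaks down retinoic acid, differed by 1.00 (unadjusted p = 0.0239) and declined in all 10 cows too. Xenobiotic and steroid genes were positive in 14 of 38 with cow C and 28 of 38 without it.

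Cell cycle genes had lower changes in LP, through particular AP cows. Of 38, 34 had a negative difference, with a median of -0.25 and of -0.31 without cow C. The median change was 0.32, 0.32, 0.55, 0.05 and 0.10 in LP, against 0.37, 1.51, 1.01, 0.20 and 0.01 in AP, so that G and H stood above all other cows and the rest overlapped. NUSAP1, a spindle protein, changed by -0.24, -0.13, 1.08, 0.03 and 0.30 in LP against 0.91, 1.77, 1.20, 0.38 and 1.17 in AP. Only cow C lay within the AP range, and the difference was -0.88 (unadjusted p = 0.00734), and -1.09 without cow C (unadjusted p = 0.000429). BUB1, a kinase of the spindle checkpoint, differed by -0.61 (unadjusted p = 0.0674). Macrophage markers were negative in 12 of 13, with a median of -0.28 and of -0.24 without cow C. Among them C1QA, of the first complement component, differed by -0.48 (unadjusted p = 0.0233), and CD5L, a protein secreted by macrophages, by -0.36 with cow C and -0.20 without it. Interferon response genes were negative in 29 of 40 with and without cow C, with medians of -0.16 and -0.08. GBP2, an interferon-induced GTPase, was an exception at 0.67 (unadjusted p = 0.0081), and OAS2, an antiviral synthetase, had -0.35 (unadjusted p = 0.0276). Unfolded protein response genes were negative in 20 of 32 with cow C and 13 of 32 without it, with medians of -0.02 and 0.05, and oxidative phosphorylation genes in 35 of 40 with cow C and 15 of 40 without it. NDUFV2, a subunit of respiratory complex I, differed by -0.38 (unadjusted p = 0.0195).

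With all 10 cows, matrix, muscle and fat genes held the widest list differences, and the size of these moved with single cows. Of 31 collagens and matrix genes, 30 had a positive difference with cow C and 29 without it, with medians of 0.99 and 0.37. At an unadjusted p under 0.05 there were 7 with cow C and 9 without it, all positive. Over all 20011 genes, such positive calls numbered 428 and 545. The list's median change was 0.11, 0.45, 2.80, -0.07 and -0.06 in LP, against -0.56, -0.25, 0.00, -0.23 and -0.24 in AP. LUM, a collagen-binding proteoglycan, changed by -0.31, 1.99, 5.57, 0.23 and 0.51 in LP against -2.12, -0.41, -0.28, 0.08 and -0.26 in AP, and differed by 2.20 (unadjusted p = 0.0271) and by 1.20 without cow C. COL1A1 had changes of 0.54, 1.58, 5.94, 0.23 and -0.12 in LP and -1.51, -0.05, 0.47, -0.34 and 0.08 in AP, and COL1A2 and COL3A1 stood at 6.57 and 4.82 in cow C. ELN, elastin, and SPARC, a collagen-binding matrix protein, differed by 0.69 and 1.33 with cow C and by 0.56 and 0.79 without it. All 15 fibroblast markers had positive differences with and without cow C, with medians of 0.89 and 0.39. Their mean signals were 6.87 to 10.38 (cow C) in LP and 6.77 to 7.26 in AP postpartum. All 15 skeletal muscle markers were positive with cow C and 14 without it, with medians of 0.76 and 0.36. Their median change was 1.99 in cow C and -1.82 in AP cow F, and between -0.20 and 0.04 in the other cows. MYH1, a fast myosin, differed by 0.99, and CASQ1, the calcium store protein of muscle, by 0.72. Adipocyte markers changed by a median of 3.13 in cow C and by -0.25 to 0.34 in all others, and were positive in 8 of 9 with cow C and 4 of 9 without it. LPL, the lipase of fat and muscle capillaries, changed by 4.79 in cow C, and LIPE, hormone-sensitive lipase, by 2.20. The part of these cell types in the differences of other genes was not tested, and the values without cow C stand beside them.

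**Figure D5:**
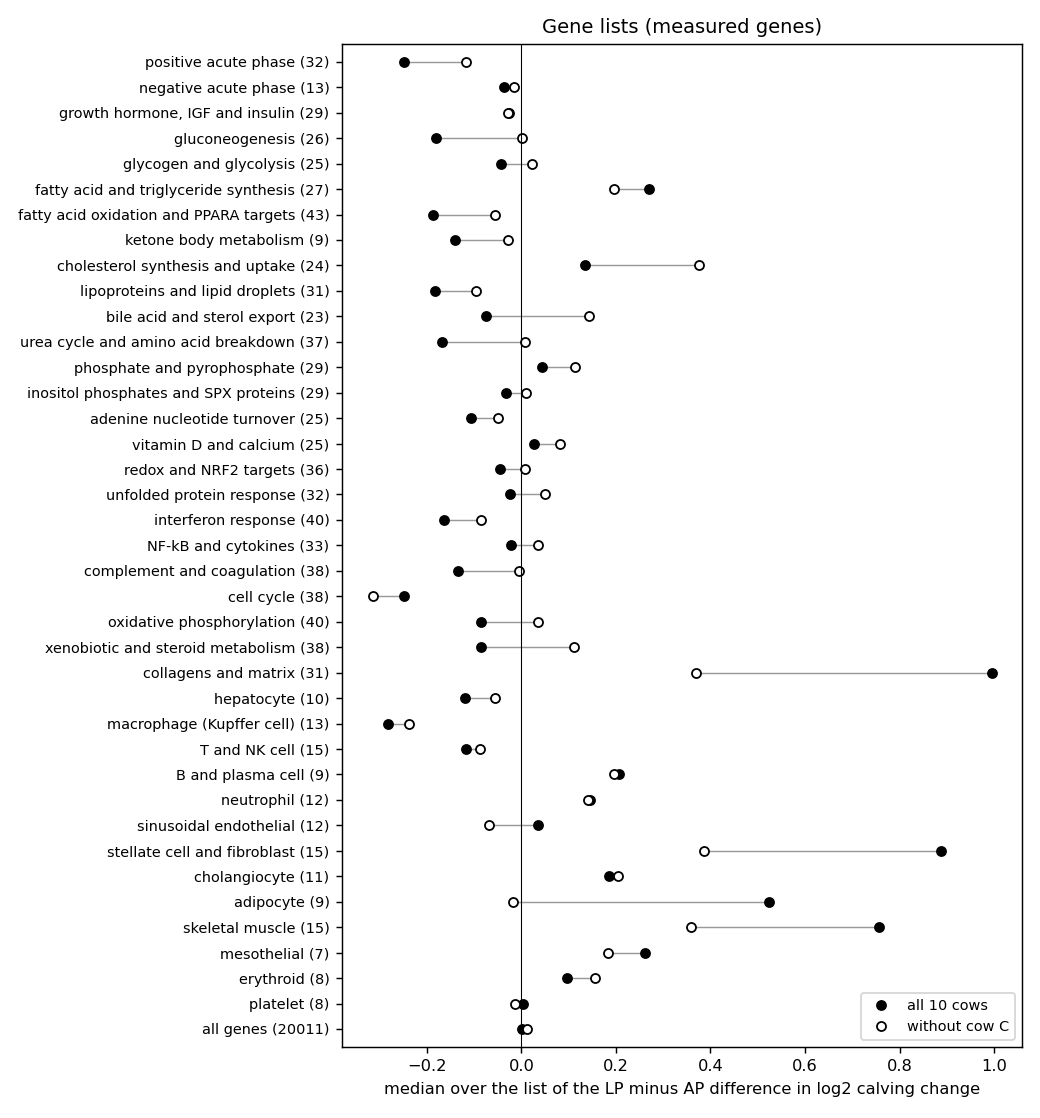
Median LP minus AP difference in log2 calving change over each gene list, with the number of measured genes in brackets, for all 10 cows (filled) and without cow C (open). The collagen, fibroblast, adipocyte and muscle lists move most when cow C is left out, while fatty acid synthesis has 0.27 and 0.20 and cell cycle -0.25 and -0.31 with and without it.

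APOA1, LDHB, SSR4, SYNJ2, OTC, CGN1, PPP1R3C and SCGB1D changed over both diets, and in each of them and in SYT4 the diets differed by less than 2 standard errors. APOA1, the chief apolipoprotein of high-density lipoprotein particles, changed by 1.43, 1.48, 0.87, 1.38 and 0.87 in LP against 1.69, 1.39, 1.62, 1.46 and 0.90 in AP, a difference of -0.20 (SE 0.19), and of -0.12 without cow C. LDHB, a lactate dehydrogenase subunit, changed by 1.11 ± 0.25 in LP and 1.49 ± 0.36 in AP. Both rose in each diet taken alone, with adjusted limma p of 0.0103 and 0.0123 in LP. SSR4, of the protein translocation machinery, differed by 0.21 (SE 0.25) and by 0.11 without cow C, and SYNJ2, a phosphoinositide phosphatase, by -0.25 (SE 0.18). OTC, of the urea cycle, differed by 0.14 (SE 0.36) and by 0.47 without cow C, and CGN1, the collectin conglutinin, by 0.56 (SE 0.54), with wide scatter between cows. SYT4, a synaptotagmin of vesicle release, was higher in LP than in AP by 0.83 postpartum and by 0.83 antepartum, and its calving change differed by 0.00 (SE 0.16). PPP1R3C, which targets a phosphatase to glycogen, and SCGB1D, a secretoglobin, fell over both diets and differed by 0.72 (SE 0.37) and 0.76 (SE 0.45).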

How the data were processed

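The authors deposited log2 signals of 24333 probe sets for 20 arrays. Per the submitters' processing notes they used RMA and Affymetrix Expression Console 1.4, and the deposited sheet is named SST-RMA. RMA gives all arrays nearly 1 distribution (array medians 5.97 to 6.14), which hides any shift common to all genes. The number of arrays limits the precision. Arrays of a cow were joined by the animal number in the sample title. A gene was a symbol held alone by a probe set (20421 probe sets, 20011 genes), and the brightest probe set stood for the 386 symbols with several. Names were compared with a RefSeq table of assembly ARS-UCD2.0, where an accession matched for 14476 genes, the symbol for 3663 more, a synonym for 79 and nothing for 1793.

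Each cow's postpartum minus antepartum log2 signal was fitted with limma 3.58.1 in R 4.3.3 (lmFit and eBayes), as LP minus AP. Tests were two-sided, p-values were adjusted by Benjamini-Hochberg across the 20011 genes, and 0.05 was the threshold. The same fit gave the change within each diet and over both. A cow's root mean square change was compared by an exact permutation test, whose smallest possible p is 0.00794. The same-numbered arrays come from the same animal. Their residuals from the group means correlated with a median r of 0.167 within cows (0.0719 to 0.312, over 0.1 in 8 of 10 cows) and of -0.0174 between cows. The fit therefore has the cow as its unit, and a fit without it was an alternative. Other alternatives were quantile normalization, centring, filters on dim genes, other probe set rules, variance models, array number as a covariate, the rounded second table and each cow left out. The script was tested on simulated data.

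Named genes were up to 10 per direction that passed or, as none did, had the lowest unadjusted p without overlap between the diets (symbols that start with LOC, are dates or name open reading frames left out). Added were the 2 members of lowest p of each described list, a fixed list of earlier results, and the 5 largest rises and falls over both diets. A gene that the rule selects is not reported here. The genes, the 25 pathway and 13 marker lists (845 of 908 genes measured) and the tests were chosen with earlier results of these data known, so lists have counts and medians only. The authors' deposited comparison columns were not used.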

Additional observations from a re-analysis of the deposited data

Results flagged for a closer look

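In a group of 5 cows, a value was singled out where its gap to the nearest cow, divided by the group's range, exceeded Dixon's critical value. Chance alone singles out about 1 in 20 independent groups of normally distributed values, and here it was 20 of 164, with cow C in 8. These groups were mostly named genes, chosen in part by their p and measured in the same cows. The count of 20 therefore cannot be judged against that rate. Among LP cows, the root mean square change over all genes was 0.644 in cow C. Cow C also stood apart in the log2 changes of COL1A1 (5.94), COL1A2 (6.57), LPL (4.79), LIPE (2.20), EMCN (2.00), CD5L (-1.27) and IGFBP2 (-0.80). Other LP cows stood apart in ERICH1 (-0.49, cow A), KIAA0182 (-0.036, cow A), GBP2 (1.05, cow E) and TRPV6 (-0.42, cow B). Among AP cows, cow F stood apart in LUM (-2.12), MYH1 (-2.11), KRT19 (-0.90) and KIAA0182 (-0.50). Cow J did so in IGF1 (-3.74) and SLC17A2 (-0.91), cow H in IGFBP1 (3.22) and cow G in STARD4 (0.22). Cow F's antepartum sample held the highest mean signal of skeletal muscle markers among AP arrays, 7.04, against at most 5.46 in AP postpartum. For CABLES1 and ERICH1 every LP cow had a negative and every AP cow a positive change, with LP minus AP differences of -0.50 and -0.44. That opposition of signs was not itself tested, and in cow H it rests on changes of only 0.0011 for CABLES1 and 0.036 for ERICH1.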

How the results depend on the processing

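The count of genes past the threshold for the diet difference was 0 in the fit per cow, without cow C, in all 10 fits without a cow and in every other adjusted fit tried. It was 63 only when the rule was an unadjusted p under 0.01 with a 1.5-fold difference. Genes at an unadjusted p under 0.05 numbered 786, then 345 with genes below the median signal left out and 589 to 1280 with a cow left out. The 1280 were without cow B. With no replicate block, 559 genes had an unadjusted p under 0.05, 300 passed over both diets, 83 passed in AP, and the median LP to AP ratio was 0.740. The count over both diets was 881 with array weights and 128 to 668 with a cow left out, the 668 without cow C. The count in LP was 12 with array number as a covariate, 9 without cow C's postpartum array and with no replicate block, and 0 to 5 with a cow left out. The count in AP was 193 and 232 with dim genes left out, 668 with array weights, 287 without cow C's postpartum array and with no replicate block, and 18 to 429 with a cow left out. The median ratio ran from 0.642 to 0.961 with a cow left out, the 0.961 without cow B. The difference in size of change ran from -0.0122, without cow C, to 0.0665. Of 81 named genes, 79 kept their sign in every setting that tested them, of 23 in all, and of 58 with an unadjusted p under 0.05, 28 had it in each such setting. With a cow left out, OTC ran from -0.055 (without cow A) to 0.47 and SYT4 from -0.071 (without cow H) to 0.11. SYT4, at 0.00 with all cows, also turned to -0.033 with arrays centred, -0.044 with array weights and -0.056 without cow C's postpartum array and with no replicate block. The cause of these turns was not tested.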
